A study of Mus musculus with 35 samples.

Results

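The genes described here are Myc, its paralogs Mycn and Mycl, their shared partner Max, and the other MAX-binding proteins Mxd1, Mxd3, Mxd4, Mxi1 and Mnt, 9 of the 18820 genes that had an array probe set of their own. They were chosen by name, and each is represented by its brightest probe set that carries a single gene symbol. Liver RNA of 35 mouse samples was measured, 1 array per sample. In the DEN model, diethylnitrosamine (10 mg per kg, injected into the peritoneum on day 15 of life) was given and the livers were taken at 9 months. The DEN model gave 5 tumors and 5 samples of non-tumorous liver (NTL), with 5 livers of untreated mice as controls, labelled as matched in sex and age. In the LT model, tg1223 mice express lymphotoxin alpha and beta in the liver at a high level, and 3 tumors and 5 NTL samples were taken at 12 months. In the MYC model, mice carried TRE-MYC together with LAP-tTA, whose liver-specific promoter drives the activator of the transgene. Doxycycline chow (200 mg per kg) held the transgene off until 8 weeks of age, and 5 tumors and 3 NTL samples were taken after its removal. The LT and MYC models share 4 control livers that carry no transgene, so that their comparisons with controls are not independent of each other. By the mouse identifiers, tumor and NTL samples came from different animals, 2 pairs of DEN tumors and 1 pair of LT tumors share an identifier stem, and the MYC NTL samples are labelled as livers of MYC-overexpressing mice while their identifiers begin with WT, which leaves their genotype unsettled.

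MYC, MYCN and MYCL are transcription factors that bind DNA only as dimers with MAX, at E-box sequences, and drive genes of ribosome production, nucleotide synthesis and cell division. MXD1, MXD3, MXD4, MXI1 and MNT also pair with MAX and occupy the same boxes, where they recruit SIN3 and histone deacetylases and repress. In adult liver, Myc is an immediate early gene that responds within hours to partial hepatectomy, feeding and stress, and its gain or overexpression is common in liver cancer.

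E-boxes stand in the promoters of some of these genes themselves. RefSeq promoters of assembly GRCm38.p6, reaching from 250 bases before to 50 bases after a transcript start, were matched for 8 of the 9 genes, 10 promoters in all. The E-box CACGTG, which reads the same on both strands, was found in 3 of these 8 genes, namely Max, Mxd4 and Mnt, against 2187 of 27025 genes in the whole promoter table (8.09%). The second motif searched was the E2F site, spelled TTTGGCGC, TTTGCCGC, TTTCGCGC or TTTCCCGC on either strand. It was found only in Mycn among the 8 genes, against 2.60% of all genes. The windows around the E-box matches are shown because they are places where the network could act on its own members. The Mycn window is shown for its E2F matches. Capitals mark the E-box in the Max (chr12:76962234-76962263, minus strand), Mxd4 (chr5:34187897-34187956, minus strand) and Mnt (chr11:74830774-74830833, plus strand) windows.
Max: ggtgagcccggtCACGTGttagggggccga
Mxd4: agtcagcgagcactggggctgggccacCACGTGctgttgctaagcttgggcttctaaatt
Mnt: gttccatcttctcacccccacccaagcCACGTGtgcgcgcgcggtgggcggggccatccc
The 250 bases before the Mycn start (chr12:12941837-12942086, minus strand) hold 3 E2F matches, in capitals, of which a pair on opposite strands overlap.
Mycn: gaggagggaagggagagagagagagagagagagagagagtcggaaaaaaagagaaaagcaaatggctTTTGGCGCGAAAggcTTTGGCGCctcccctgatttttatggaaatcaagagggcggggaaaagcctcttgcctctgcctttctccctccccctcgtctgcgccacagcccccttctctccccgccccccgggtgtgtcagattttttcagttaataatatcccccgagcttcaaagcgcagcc
A match is a string of letters and was not tested as a binding site. In the Max promoter the E-box lies across the transcript start, from position -3.

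Hepatocyte markers were high in every array (means of 13.05 to 13.44). Of these, 4 of 8 were called lower in MYC tumors against NTL (1 to 3 with 1 array left out). There the group mean was 13.15 in tumors and 13.36 in NTL. Xist, an RNA of female cells, was high in all 3 LT tumors, 4 of 5 LT NTL samples, 1 DEN control and 1 shared control, and low in the other 26 arrays. DEN control replicate 3 had 12.02, against 3.72 to 4.41 in DEN tumors and 3.54 to 3.88 in DEN NTL, which goes against the labelled match of sex. Without this control the calls of Mycn, Mxd3 and Mnt in DEN tumors against controls held, and that of Mxi1 was lost (adjusted p = 0.0867). The shared controls, labelled as sex-matched too, held 1 liver with high Xist of 4, while all LT tumors were high and all MYC tumors low. Against NTL, Kupffer cell markers were called lower in DEN tumors for 8 of 8 genes, with array means of 6.64 to 7.91 in tumors and 8.67 to 9.53 in NTL. Stellate cell markers were called lower in MYC tumors for 7 of 8 genes (4 to 7 with 1 array left out). Their array means were at most 8.12 in tumors and 8.49 to 8.68 in NTL. The part of these cell types in the changes of the network genes was not tested.

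All levels below are log2 values as deposited, and a change of 1 is a 2-fold difference. Levels of different genes come from different probes and are not set against each other. A gene was called changed at a Benjamini-Hochberg adjusted p under 0.05 in a limma fit over all arrays and all 18820 genes, and errors beside changes are standard errors of that fit. In the MYC tumors, 3 of the 9 genes were called against NTL, namely Myc and Mxd3 (higher) and Mycl (lower), where 21.8% of all genes tested were called (11.5% higher and 10.3% lower). The same genes were called against the transgene-negative controls, a comparison that shares the tumor arrays, where 20.5% of all genes were called (10.2% higher and 10.3% lower). In the DEN tumors, 3 of 9 genes were called against NTL, all higher (Mycn, Mxd1 and Mxd3), beside 32.2% of all genes (15.6% higher and 16.7% lower). Against DEN controls 4 of 9 were called, Mycn, Mxd3 and Mnt higher and Mxi1 lower, beside 30.7% of all genes (15% higher and 15.6% lower). In the LT tumors, Mxi1 was called lower against NTL, 1 of 9 beside 20.4% of all genes (10.7% higher and 9.73% lower), and Mxi1 (lower) and Max (higher) were called against controls, 2 of 9 beside 16.5% (8.78% higher and 7.73% lower). With 9 genes, these counts lie near the shares of all genes and are read as no result about the network as a whole. The median change of the 9 genes against NTL was 0.27 in DEN tumors, 0.07 in LT tumors and 0.18 in MYC tumors, beside medians over all genes of -0.04, -0.03 and -0.03.

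**Figure D1:**
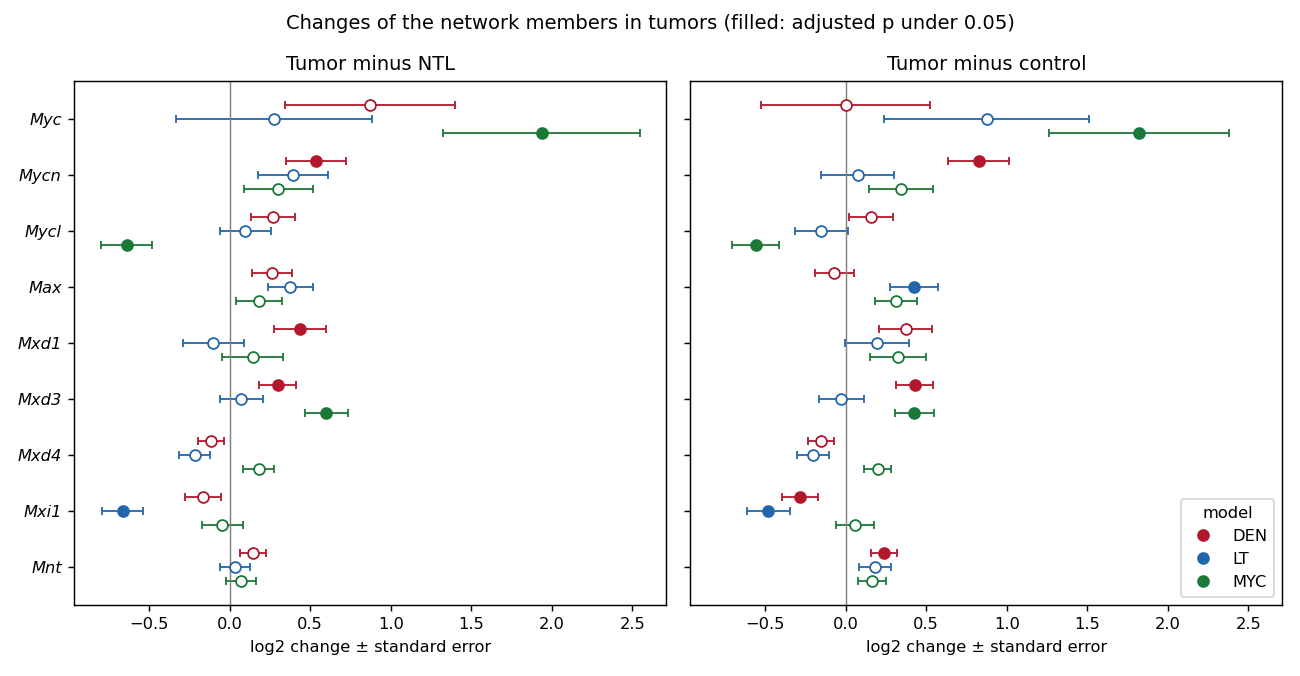
Log2 change of each network gene in tumors against NTL (left panel) and against controls (right panel) with its standard error, in the DEN (red), LT (blue) and MYC (green) models. Filled points passed an adjusted p of 0.05, and Myc in the MYC tumors has the largest change (1.94 against NTL) and one of the widest errors (0.61).

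None of the 9 genes was called by limma in non-tumorous liver against controls. At an unadjusted p under 0.05, 1 gene (Max) stood apart in DEN NTL and none did in LT NTL or MYC NTL. Few genes of the whole array were called in these comparisons, 0.197% for DEN, 2.41% for LT and 3.83% for MYC. In DEN NTL, however, Max lay between 7.89 and 8.17 in the 5 samples, below the 8.20 to 8.65 of all 5 controls, with a change of -0.33 ± 0.12 (adjusted p = 0.355). Mycn lay between 5.79 and 5.99 in DEN NTL, above the 5.48 to 5.63 of all 5 controls, with a change of 0.29 ± 0.19 (adjusted p = 0.668), which was called when only these groups were fitted (adjusted p = 0.0393).

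Myc varied most within groups among the 9 genes. Its standard deviation within groups was 0.88, larger than that of 99.2% of all genes, for which the median was 0.16. In the MYC tumors its level was 8.88, 9.71, 9.56, 10.52 and 9.60, against 9.48, 6.42 and 7.25 in MYC NTL. The shared controls had 7.29, 7.31, 7.18 and 9.56. The tumors were uniformly high, but 1 of 3 NTL samples and 1 of 4 controls were as high as the tumors, so the groups overlapped. The mean was 9.65 ± 0.59 in MYC tumors (SD, n = 5) and 7.72 ± 1.58 in MYC NTL (SD, n = 3), a 3.83-fold difference (log2 change 1.94 ± 0.61, limma adjusted p = 0.0217). Against controls, at 7.83 ± 1.15 (SD, n = 4), the change was 1.82 ± 0.56 (adjusted p = 0.0191). With the MYC tumor and NTL arrays alone, the two-sided exact permutation p was 0.0714, where the smallest p that 5 and 3 arrays allow is 0.0179. Without NTL replicate 2, the lowest array, the change was 1.29 (adjusted p = 0.204). The call was also lost with only these groups fitted (adjusted p = 0.0571). The change was 1.70 (adjusted p = 0.0998) without NTL replicate 3 and 1.72 (adjusted p = 0.0518) without tumor replicate 4. Against controls the call was lost without control replicate 1, 2 or 3 (adjusted p between 0.0641 and 0.0725) or tumor replicate 4 (0.0543).

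Myc in the DEN tumors was 8.95, 7.88, 8.42, 8.12 and 8.64, against 7.13, 7.89, 7.97, 7.36 and 7.29 in DEN NTL, so that 4 of 5 tumors lay above all NTL samples. The untreated DEN controls had 9.23, 9.95, 7.15, 7.41 and 8.27. The highest untreated liver thus exceeded every DEN tumor. Against NTL the change was 0.87 ± 0.53 and was not called with the spread of all groups (adjusted p = 0.217), but it was called when only these 10 arrays were fitted (adjusted p = 0.0129). Permuting the 10 arrays exactly (two-sided) gave p = 0.0238, with 0.00794 the smallest possible, and p = 0.107 once tumors of a shared identifier stem were averaged. Against DEN controls the change was -0.00 ± 0.53 (adjusted p = 0.999).

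In the LT tumors Myc was 9.25, 8.91 and 7.96, against 9.80, 8.22, 8.32, 8.20 and 7.65 in LT NTL. The highest array of the model was an NTL sample. The change was 0.27 ± 0.61 (adjusted p = 0.805), with p = 0.643 in the exact permutation test (two-sided). Over the 8 groups, mean Myc ran from 9.65 in MYC tumors through LT tumors (8.71), LT NTL (8.44), DEN tumors and DEN controls (8.40 each), shared controls (7.83) and MYC NTL (7.72) to DEN NTL (7.53). The ranges of every pair of neighbours in this order overlapped. The difference between the MYC and the LT change was not called (LT minus MYC -1.66 ± 0.86, adjusted p = 0.215), nor was that between the MYC and the DEN change (DEN minus MYC -1.06 ± 0.81, adjusted p = 0.434).

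The array probes were designed on mouse transcripts. The labels do not give the species of the MYC transgene, and the probe sequences were not used here, so how much of the Myc signal in MYC mice came from the transgene and how much from the mouse's own gene cannot be told apart. A second readout of the region is Pvt1, a long non-coding RNA gene that is the next gene after Myc in the RefSeq order. In MYC tumors Pvt1 was 7.60, 7.49, 7.37, 7.23 and 7.62, against 5.95, 5.87 and 5.72 in MYC NTL and at most 6.55 in the 4 shared controls. All 5 tumors lay above all NTL samples and controls. The change was 1.61 ± 0.28 against NTL (3.05-fold, adjusted p = 0.000113) and 1.18 ± 0.26 against controls (adjusted p = 0.00124). The MYC NTL sample with a Myc level of 9.48 had a Pvt1 level of 5.95, and the control with a Myc level of 9.56 had one of 6.05, both within the range of their groups. In DEN tumors Pvt1 changed by 0.18 ± 0.24 against NTL (adjusted p = 0.606), and this change was lower than that in MYC tumors (DEN minus MYC -1.43 ± 0.37, adjusted p = 0.0081). This difference between models was taken against NTL only, and the NTL levels differed. Mean Pvt1 was 7.05 ± 0.61 in DEN tumors, 6.87 ± 0.21 in DEN NTL and 6.42 ± 0.42 in DEN controls (SD, n = 5 each). In MYC NTL it was 5.85 ± 0.12 (SD, n = 3), the lowest of the 8 groups. In LT tumors Pvt1 was 7.76, 7.64 and 6.23, against 6.06 to 6.67 in LT NTL (0.77 ± 0.28, adjusted p = 0.0499), and the 2 high tumors share an identifier stem.

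**Figure D2:**
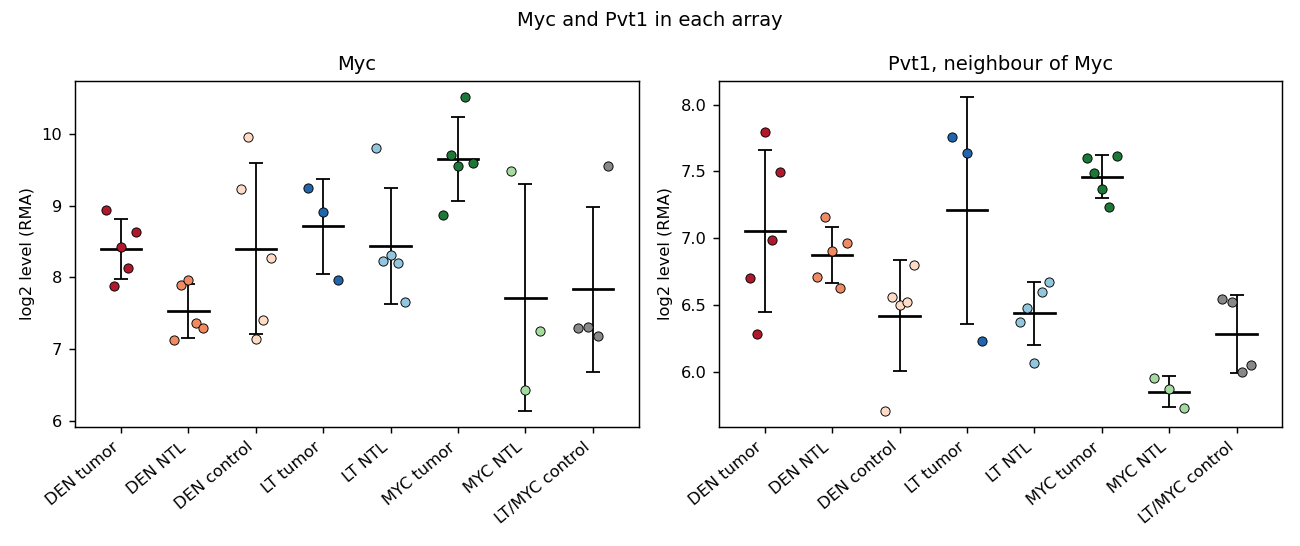
Log2 level of Myc (left panel) and of its neighbour Pvt1 (right panel) in each of the 35 arrays, by group. Bars give the mean and standard deviation. Single livers of the NTL and control groups reach the Myc levels of MYC tumors (9.48 and 9.56, for example), while Pvt1 in the 5 MYC tumors (7.23 to 7.62) lies above all MYC NTL and shared control samples.

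By the rule of highest correlation over the 35 arrays, the genes most like Myc were those of the ribosomal proteins Rps25 (Pearson r = 0.70), Rpl4 (0.67) and Rpl38 (0.67). These values include the differences between groups, and the arrays of a group share their model and tissue. Once group means were taken out, a choice made after the values were seen, the most like genes were Gadd45g (0.78), a stress-induced growth arrest gene, Btbd19 (0.75) and the microRNA gene Mir101b (0.72). Myc had an r of 0.46 with Mki67, a marker of dividing cells, over all arrays and of 0.07 without group means.

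Mycn, which is expressed in embryonic tissues and in several childhood tumors, was called in the DEN model. Its level in DEN tumors was 5.98, 6.66, 6.37, 6.10 and 6.86, against 5.88, 5.79, 5.99, 5.79 and 5.83 in DEN NTL and 5.48 to 5.63 in the 5 DEN controls. Every tumor lay above every control, and 4 of 5 lay above every NTL sample. The change was 0.83 ± 0.19 against controls (1.77-fold, adjusted p = 0.000871) and 0.54 ± 0.19 against NTL (1.45-fold, adjusted p = 0.0268). The call against controls held under each alternative and with each array left out. The call against NTL was lost without tumor replicate 2 (0.47, adjusted p = 0.0725), tumor replicate 5 (0.42, adjusted p = 0.0967) or NTL replicate 4 (adjusted p = 0.053). In MYC tumors Mycn was spread from 5.26 to 6.82, the widest range of any group, against 5.56 to 5.94 in MYC NTL, and its change of 0.30 ± 0.22 was not called (adjusted p = 0.348). In LT tumors it was 6.17, 5.73 and 5.51, against 5.15 to 5.82 in LT NTL (change 0.39 ± 0.22, adjusted p = 0.215). Genes most like Mycn over the 35 arrays were Slc48a1, a heme transporter (r = 0.81), Bcl2l1, which encodes the survival factor BCL-XL (0.79), and Sowahb (0.79).

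Mycl, the third MYC paralog, was lower in the MYC tumors. These did not overlap with MYC NTL, but 1 shared control (6.11) lay within the range of Mycl in the tumors. Its level was 6.09, 6.05, 6.31, 5.80 and 6.01 in MYC tumors, against 6.75, 6.73 and 6.59 in MYC NTL and 6.65, 6.74, 6.93 and 6.11 in the shared controls. The change was -0.64 ± 0.16 against NTL (adjusted p = 0.00375) and -0.56 ± 0.14 against controls (adjusted p = 0.00557). Both calls held under each alternative and with each array left out. In the other models Mycl was not called (DEN 0.27 ± 0.14, adjusted p = 0.133, and LT 0.10 ± 0.16, adjusted p = 0.721), but in DEN tumors it was called higher without tumor replicate 1 (0.40, adjusted p = 0.0167). The difference between models was itself called for DEN against MYC (0.91 ± 0.21, adjusted p = 0.00278), where Mycl was 1 of 9 network genes called beside 15.1% of all genes. For LT against MYC it was 0.74 ± 0.22 (adjusted p = 0.027), and there 3 of 9 were called beside 12.4% of all genes. The LT against MYC call was lost with the replicate number as a block (0.68, adjusted p = 0.0709) and without LT tumor replicate 2, MYC NTL replicate 1 or MYC NTL replicate 2 (adjusted p between 0.0608 and 0.0648).

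Array by array, Mycl also ran against Myc in several groups. In 5 of the 8 groups, the MYC tumors among them, the array with the highest Myc had the lowest Mycl. DEN NTL, LT NTL and MYC NTL were the exceptions. The shared control with a Myc of 9.56 had a Mycl of 6.11, against 6.65 to 6.93 in the other 3 controls. The DEN control with a Myc of 9.95 had a Mycl of 6.33 and the DEN tumor with a Myc of 8.95 had one of 6.15, each the lowest of its group. In MYC NTL the sample with a Myc of 9.48 had the highest Mycl of its group (6.75). Over all 35 arrays, MYC tumors included, Pearson's r was -0.60 and Spearman's rho -0.58. Pearson's r was -0.51 without the 2 arrays farthest from the median of Myc and -0.53 with group means taken out. This was the most negative r over all arrays of the 36 pairs of network genes, and since it was picked for its size it is given as a description, with no test. Genes most like Mycl were Eepd1 (r = 0.73), Ank, a pyrophosphate transporter gene (0.72), and Xpo6, an exportin gene (0.72).

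**Figure D3:**
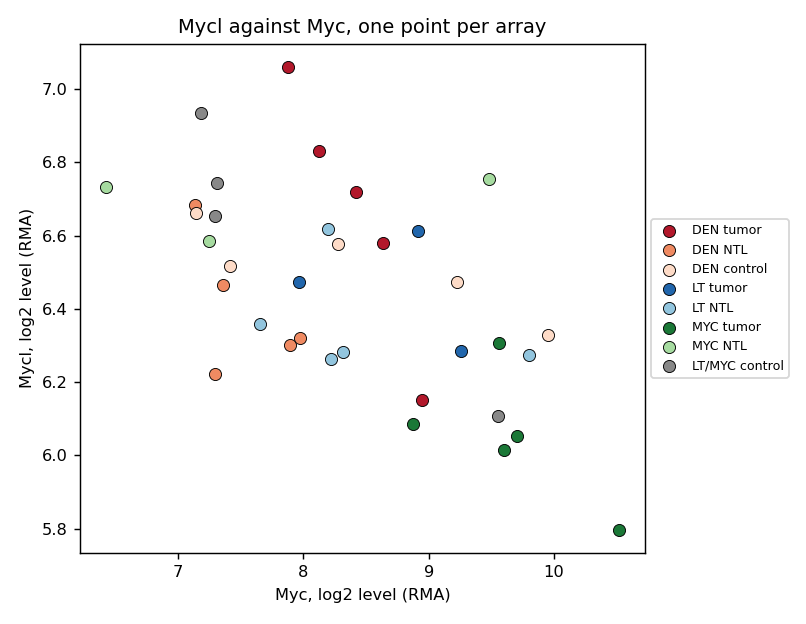
Log2 level of Mycl (vertical axis) against that of Myc (horizontal axis), 1 point per array, coloured by group. The points run from upper left to lower right (r = -0.60), with the MYC tumors at the lower right, 1 shared control (9.56 and 6.11) beside them and 1 MYC NTL sample (9.48 and 6.75) above the other MYC NTL and tumor samples.

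Max, the partner that all these proteins share, moved little. In LT tumors it was 8.84, 8.62 and 8.12, against 8.23, 8.23, 8.03 and 7.92 in the shared controls. The 2 high tumors share an identifier stem, and the third lay within the control range. The change was 0.43 ± 0.15 (adjusted p = 0.0462). It was not called with the replicate number as a block (0.42, adjusted p = 0.0711), with tumors of a shared stem averaged (0.32, adjusted p = 0.232), with the Xist class of the array as a covariate (0.33, adjusted p = 0.267), with arrays centred on their medians (adjusted p = 0.0653), with only these groups fitted (adjusted p = 0.248), or without LT tumor replicate 1 (0.27, adjusted p = 0.353). The call was also lost without LT tumor replicate 2 or control replicate 2, 3 or 4 (adjusted p between 0.0533 and 0.145). Against LT NTL the change of Max was 0.38 ± 0.14 (adjusted p = 0.0572), and without LT tumor replicate 3 it was 0.58 and called (adjusted p = 0.00286). In MYC tumors Max was 8.28, 8.36, 8.42, 8.28 and 8.75, above all 4 controls, with a change of 0.31 ± 0.13 that was not called (adjusted p = 0.0857).

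Mxd3, an MXD protein that in mouse development is expressed in S phase progenitor cells, was called higher in both the MYC and the DEN tumors. In MYC tumors it was 5.00, 5.32, 5.58, 5.15 and 5.07, against 4.59, 4.77 and 4.51 in MYC NTL and 4.81, 4.85, 4.81 and 4.71 in the shared controls. Every tumor lay above every NTL sample and control. The change was 0.60 ± 0.13 against NTL (1.52-fold, adjusted p = 0.00139) and 0.43 ± 0.12 against controls (adjusted p = 0.0117). Both calls held under each alternative and with each array left out. In DEN tumors it was 5.11, 5.42, 4.82, 5.52 and 4.93, against 4.78 to 4.97 in DEN NTL and 4.55 to 4.92 in DEN controls. Here 3 of 5 tumors lay above all NTL samples. The change was 0.43 ± 0.11 against controls (adjusted p = 0.00406), called under each alternative. It was 0.30 ± 0.11 against NTL (adjusted p = 0.0453), a call lost without tumor replicate 4 (0.21, adjusted p = 0.174) or tumor replicate 2 (0.23, adjusted p = 0.142), and in 5 other leave-one-out fits and 3 other alternatives (adjusted p between 0.0529 and 0.105). In LT tumors Mxd3 was 4.88, 4.77 and 4.66, within the LT NTL range of 4.54 to 5.02. These levels are low on the arrays, whose first quartiles lay between 4.13 and 4.24.

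Markers of dividing cells moved with Mxd3. The 3 genes most like it over all arrays encode parts of the mitotic machinery, the centriole factor Stil (r = 0.86), the spindle midzone protein Prc1 (0.85) and the chromosome kinesin Kif4 (0.85), and r with Mki67 was 0.79. All 9 measured dividing cell markers were called higher against NTL in DEN and in MYC tumors. In LT tumors 8 of the 9 markers were (4 to 8 with 1 array left out). Their mean level over arrays was 7.48 to 8.86 in MYC tumors, 6.12 to 8.09 in DEN tumors and 5.83 to 7.45 in LT tumors, against 5.33 to 5.48 in MYC NTL, 5.36 to 5.95 in DEN NTL and 5.23 to 5.53 in LT NTL. Their part in the rise of Mxd3 was not tested. In whole tissue, more cells that express a gene and more RNA per cell cannot be told apart.

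Mxd1, which in mouse and human blood cells is induced as precursors differentiate, was high in 2 arrays. In DEN tumors it was 7.46, 7.51, 8.86, 7.49 and 8.13, against 7.34 to 7.58 in DEN NTL and 7.42 to 7.64 in DEN controls. The 2 high tumors, replicates 3 and 5, share an identifier stem, and the other 3 lay within the NTL range. The change of 0.44 ± 0.16 against NTL (adjusted p = 0.0403) became 0.19 (adjusted p = 0.215) without tumor replicate 3 and 0.37 (adjusted p = 0.0603) with shared stems averaged. It was also lost without tumor replicate 5, without NTL replicate 1, 2, 4 or 5, with arrays centred on their medians (adjusted p = 0.053) and with only these groups fitted (adjusted p = 0.203). Genes most like Mxd1 were Cr2, a complement receptor gene of B cells (r = 0.80), Nkx2-6, a homeobox gene (0.80), and Ppp1r15a, the stress gene GADD34 (0.80). In MYC tumors Mxd1 was 7.27 to 7.64, against 7.14 to 7.36 in MYC NTL (0.14 ± 0.19, adjusted p = 0.645), and in LT tumors it was 7.13 to 7.50, against 7.13 to 7.52 in LT NTL (-0.10 ± 0.19, adjusted p = 0.761).

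Mxi1, the member known also as MXD2 and a MYC antagonist, was lower in the LT tumors. It was 7.09, 6.97 and 7.35 in LT tumors, against 7.63, 7.81, 7.78, 7.98 and 7.80 in LT NTL and 7.70, 7.66, 7.51 and 7.60 in the shared controls. All 3 tumors lay below all NTL samples and controls. The change against NTL was -0.66 ± 0.13 (adjusted p = 0.000463), a call that held under each alternative and with each array left out. Against controls it was -0.48 ± 0.13 (adjusted p = 0.0139). That call was lost with both Mxi1 probe sets averaged (-0.34, adjusted p = 0.0666), with the Xist class as a covariate (adjusted p = 0.0824), with only the groups compared fitted (adjusted p = 0.137), or when tumor replicate 1 (adjusted p = 0.0743) or tumor replicate 2 (adjusted p = 0.0786) was left out. The dimmer Mxi1 probe set had 5.24 ± 0.25 in LT tumors (SD, n = 3) and 5.54 ± 0.21 in LT NTL (SD, n = 5), and these ranges overlapped. In MYC tumors the main probe set read 7.54 to 7.88, against 7.70 to 7.75 in MYC NTL. The LT change of Mxi1 was lower than the MYC change (-0.62 ± 0.18, adjusted p = 0.0224), a call lost with the probe sets averaged (-0.33, adjusted p = 0.211) and without LT tumor replicate 1 or 2 or MYC NTL replicate 3 (adjusted p between 0.0505 and 0.0578).

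In DEN tumors Mxi1 was 7.60, 7.07, 7.89, 6.98 and 7.46, wider than the 7.63 to 7.75 of DEN controls. The 2 lowest tumors were those with the highest Mxd3. Its change was -0.28 ± 0.11 against controls, just inside the threshold (adjusted p = 0.04998), and the call was lost in 8 leave-one-out fits and 5 other alternatives, for example without tumor replicate 4 (-0.18, adjusted p = 0.218) or with the probe sets averaged (-0.19, adjusted p = 0.182). Against DEN NTL it was -0.16 ± 0.11 (adjusted p = 0.272), ranging from -0.29 to -0.06 with 1 array left out and called without tumor replicate 3 (-0.29, adjusted p = 0.0262). The DEN and LT changes against NTL differed by 0.50 ± 0.17 (adjusted p = 0.0454), 1 of 9 network genes called beside 13.9% of all genes, a call lost in 13 leave-one-out fits and 5 other alternatives (adjusted p between 0.0541 and 0.153). Genes most like Mxi1 were Slc25a28, a mitochondrial iron carrier gene (r = 0.78), Cyp4f14 (0.78) and the kinase gene Braf (0.78). Markers of macrophages moved with the LT tumors: all 9 were called higher against LT NTL, and their mean level was 7.97 to 9.29 in LT tumors, against 6.70 to 7.33 in LT NTL. In the same comparison 4 of 7 T and NK cell markers and 3 of 7 B cell markers were called higher. Of 8 markers of sinusoidal endothelial cells, 4 were called lower. With 1 array left out, 0 to 6 T and NK cell and 2 to 7 B cell markers were called higher. Both counts were lowest without LT tumor replicate 1. In these fits 7 to 9 macrophage markers were called higher and 0 to 4 sinusoidal markers lower. The part of these cell types in the lower Mxi1 was not tested.

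Mxd4 and Mnt changed by small amounts. Mxd4 was 8.89, 8.96 and 9.14 in LT tumors, against 9.19 to 9.26 in LT NTL and 9.16 to 9.26 in controls. All 3 tumors lay below both groups, but the change of -0.22 ± 0.09 against NTL was not called (adjusted p = 0.103). It was called with arrays centred on their medians (-0.27, adjusted p = 0.0443) and when tumor replicate 3 was left out (-0.29, adjusted p = 0.0412). In MYC tumors it was 9.29, 9.50, 9.40, 9.63 and 9.18, against 9.13 to 9.31 in MYC NTL (0.18 ± 0.09, adjusted p = 0.181). The difference between the LT and MYC changes was -0.40 ± 0.13 (adjusted p = 0.0463), a call lost in 13 leave-one-out fits and 4 other alternatives (adjusted p between 0.0507 and 0.137). Mnt, which binds MAX in nearly all cells and restrains MYC, was 7.39, 6.87, 7.06, 7.06 and 7.15 in DEN tumors, against 6.81 to 6.95 in DEN controls (0.24 ± 0.08, adjusted p = 0.0238). Without tumor replicate 1, the highest, the change was 0.17 (adjusted p = 0.108), and the call was also lost with shared stems averaged (0.20, adjusted p = 0.0962), with arrays centred, with only these groups fitted and without control replicate 5 (adjusted p between 0.0544 and 0.0718). Against DEN NTL, at 6.76 to 7.07, the change of Mnt was 0.15 and was not called (adjusted p = 0.173). Nor was its change against NTL in LT tumors (0.03, adjusted p = 0.862) or MYC tumors (0.07, adjusted p = 0.657).

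**Figure D4:**
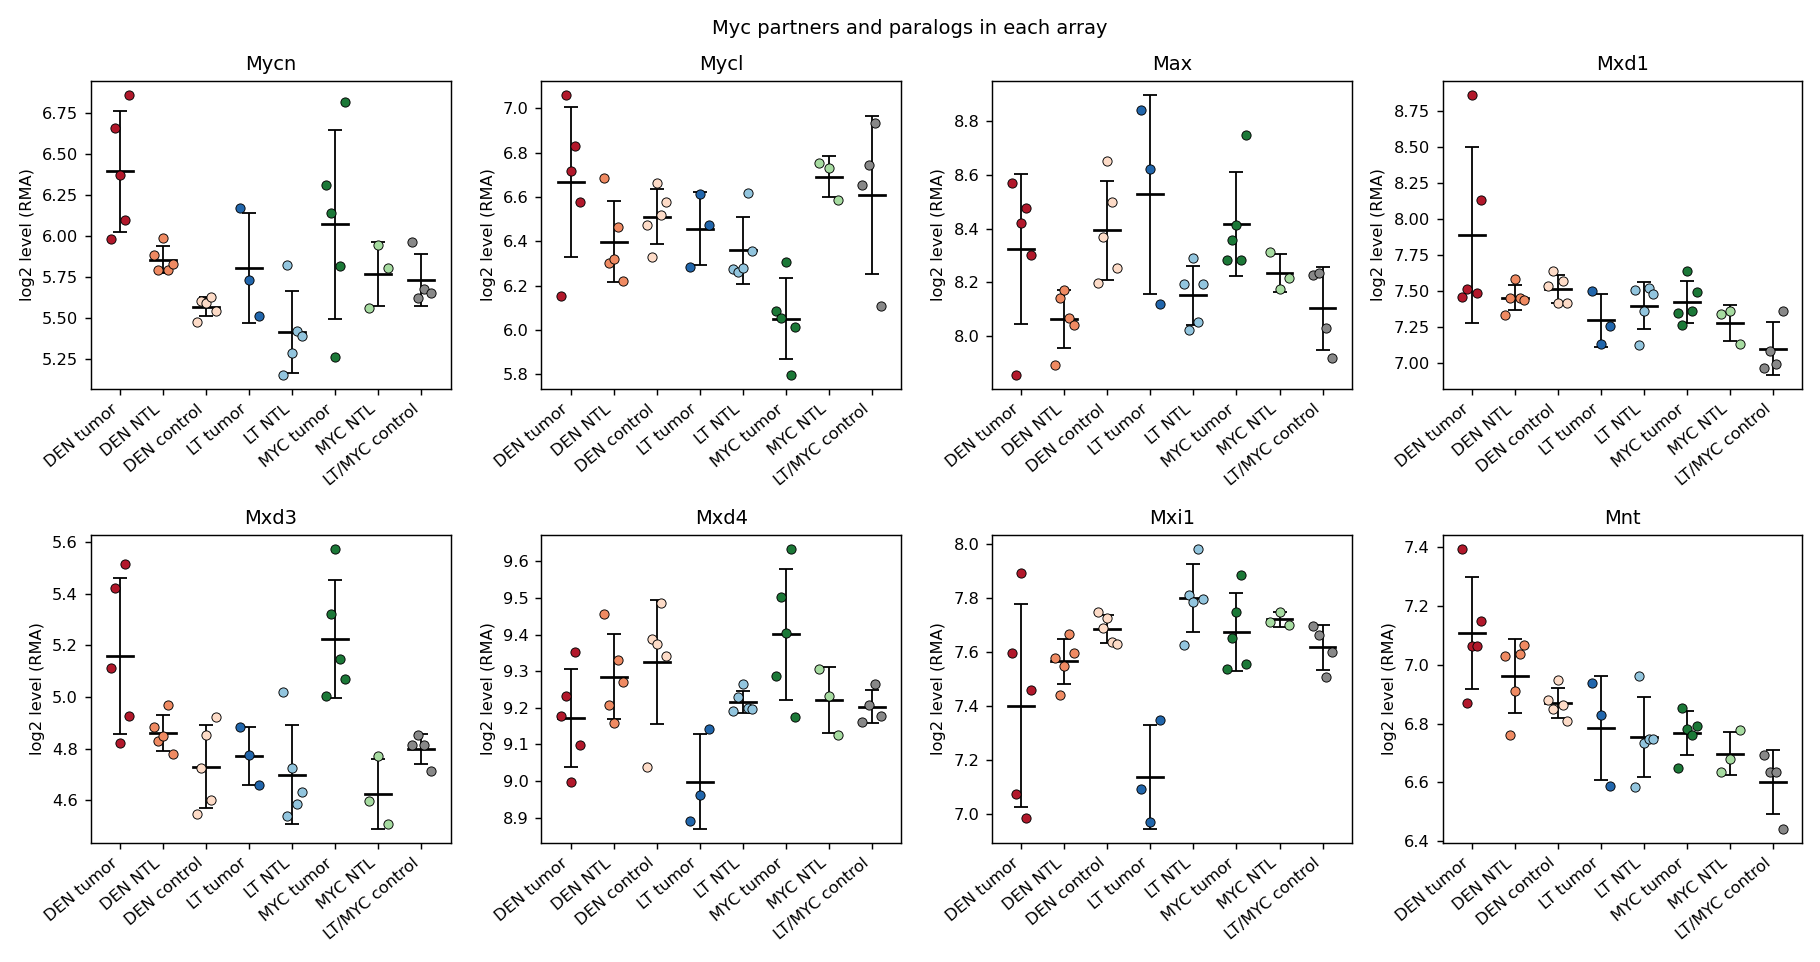
Log2 level of the other 8 network genes in each array, by group. Bars give the mean and standard deviation, and each panel has its own axis. Mycl (5.80 to 6.31) and Mxd3 (5.00 to 5.58) set the MYC tumors apart from MYC NTL, Mxi1 sets the LT tumors apart from LT NTL and the shared controls (6.97 to 7.35, a range that 2 DEN tumors share), and Mxd1 is high in 2 DEN tumors (8.86 and 8.13).

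The rest of the network was read through lists of genes named for their roles, given as counts of called genes. Against NTL, the shares of all genes called were 11.5% higher and 10.3% lower in MYC tumors, 15.6% and 16.7% in DEN tumors, and 10.7% and 9.73% in LT tumors, and the counts below stand beside these. The parallel arm of the network joins MLX to the glucose sensor ChREBP (Mlxipl) and to MONDOA (Mlxip), and MGA is a further MAX partner. Of these 4 genes, Mlxipl fell in MYC tumors against NTL (-0.49 ± 0.14, adjusted p = 0.0102), and no gene of the arm was called lower without MYC NTL replicate 2. In LT tumors Mlx (-0.43 ± 0.11, adjusted p = 0.00648) and Mlxipl (-0.41 ± 0.14, adjusted p = 0.0336) fell, with overlapping groups. Neither was called without LT tumor replicate 1, and only 1 gene of the arm was called lower without LT tumor replicate 2 or LT NTL replicate 2, 4 or 5. In DEN tumors Mga rose (0.32 ± 0.10, adjusted p = 0.0124), a call lost without NTL replicate 4. It was 8.80 to 9.19 in the tumors and 8.43 to 8.80 in NTL, so that the lowest tumor and the highest NTL sample were almost level.

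Among 13 measured MYC coactivators, 4 were higher and 2 lower in MYC tumors against NTL, with 2 to 4 higher and 1 to 2 lower when 1 array was left out (2 higher without NTL replicate 3). Those that rose included Trrap, the scaffold that brings acetyltransferases to MYC (0.45 ± 0.11, adjusted p = 0.00272), the acetyltransferase Kat5 (0.47 ± 0.08, adjusted p = 7.52e-05) and the helicase Ruvbl1 (0.48 ± 0.13, adjusted p = 0.00736). Ccnt1, the cyclin of the elongation kinase, fell (-0.53 ± 0.08, adjusted p = 1.03e-05). In DEN tumors 6 were higher and 1 lower, with Cdk9, the elongation kinase itself (0.48 ± 0.09, adjusted p = 0.000118), and Ep300 (0.47 ± 0.07, adjusted p = 1.02e-05) in front. In LT tumors 1 was higher (Cdk9) and 2 were lower (Ruvbl1 and Wdr5), and none was called in either direction without LT tumor replicate 1. None was called higher without LT tumor replicate 2, and none lower without LT tumor replicate 3 or LT NTL replicate 1 or 5. Of 9 measured corepressors that MXD and MNT recruit, Hdac1 fell in MYC tumors (-0.49 ± 0.12, adjusted p = 0.00382) and rose in DEN tumors (0.37 ± 0.11, adjusted p = 0.00652). Rbbp7, a histone-binding subunit, rose in both (0.48 ± 0.12, adjusted p = 0.00499 in MYC, and 0.54 ± 0.11, adjusted p = 0.000184 in DEN). With 1 array left out, 1 to 3 genes of this list were called higher and 1 to 2 lower in MYC tumors. In DEN tumors 2 were called higher and 1 to 2 lower in such fits. No corepressor was called by limma in LT tumors against NTL and none had an unadjusted p under 0.05, although 1 was called lower without LT tumor replicate 2.

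Of 18 measured genes that set the stability of MYC protein, 3 were higher and 1 lower in MYC tumors, 7 higher and none lower in DEN tumors, and 2 higher and 1 lower in LT tumors. The MYC and LT counts lie near the shares of all genes, the MYC count of higher genes was 5 without tumor replicate 4, and the LT count of higher genes was 0 without LT tumor replicate 1 or 2. Those that rose most are also cell cycle genes: the mitotic kinase Plk1 (3.19 ± 0.42 in MYC, adjusted p = 2.65e-06), Aurka, a kinase that shields MYCN from degradation (2.13 ± 0.31 in MYC, adjusted p = 1.21e-05), and Cip2a, an inhibitor of the phosphatase that destabilises MYC (1.67 ± 0.36 in MYC, adjusted p = 0.000979). Plk1 is also among the dividing cell markers. Usp28, a deubiquitinase that stabilises MYC, fell in MYC (-0.43 ± 0.13, adjusted p = 0.0154) and LT tumors (-0.56 ± 0.13, adjusted p = 0.00237). Another list held 20 measured genes named as inputs to the transcription of Myc or Mxd genes. Of these, 8 were higher and 3 lower in MYC tumors, 7 and 1 in DEN tumors, and 5 and 1 in LT tumors. Pvt1, described above, is on this list and is among the higher genes in MYC and LT tumors. With 1 array left out, the count of higher genes was 5 to 8 in MYC tumors (5 without NTL replicate 2) and 2 to 5 in LT tumors (2 without tumor replicate 1, and 3 without tumor replicate 2 or any NTL sample). Hes1, a Notch target, rose in all 3 models (0.92 ± 0.20 in MYC, 1.11 ± 0.18 in DEN and 0.95 ± 0.20 in LT), and the forkhead genes Foxo1 and Foxo3 fell in MYC tumors (-0.72 ± 0.18, adjusted p = 0.00507, and -0.53 ± 0.16, adjusted p = 0.0189).

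Of 48 measured genes known as activated by MYC, 19 were higher and 2 lower in MYC tumors against NTL, and 28 were higher and none lower against controls. In DEN tumors 11 were higher and 1 lower against NTL, and 8 were higher and 2 lower against controls. In LT tumors 5 were higher and 6 lower against NTL, and 7 were higher and 1 lower against controls. The median change of the 48 was 0.24 against NTL and 0.35 against controls in MYC tumors, beside -0.03 and -0.02 over all genes. In the other models its sign depended on the comparison, with 0.07 against NTL and -0.07 against controls in DEN tumors (all genes -0.04 and -0.03), and -0.13 and 0.03 in LT tumors (all genes -0.03 and -0.05). The mean level of the 48 was 8.54 ± 0.07 in LT tumors (SD, n = 3), 8.64 ± 0.10 in LT NTL (SD, n = 5) and 8.45 ± 0.04 in the shared controls (SD, n = 4). The MYC tumor count against NTL was 12 to 24 higher with 1 array left out (12 without NTL replicate 2), and the LT count of higher genes was 0 to 6 (0 without LT tumor replicate 1, and 3 without LT tumor replicate 2 or LT NTL replicate 1). Tested gene by gene, the LT change was lower than the MYC change for 14 of the 48 and higher for 1, where 12.4% of all genes were called. The DEN change was lower than the MYC change for 7 and higher for none, 14.6% of the list beside 15.1% of all genes, which is no more than the background. In MYC tumors the largest called rises against NTL were those of Tfrc, the transferrin receptor (1.79 ± 0.40, adjusted p = 0.00142), the nucleolar protein Nop58 (0.83 ± 0.20, adjusted p = 0.00348) and the cell cycle phosphatase Cdc25a (0.80 ± 0.11, adjusted p = 6.62e-06). Against controls Nme1, a nucleoside diphosphate kinase, rose by 0.99 ± 0.15 (adjusted p = 1.59e-05). In LT tumors the purine synthesis enzyme Ppat (-0.93 ± 0.18, adjusted p = 0.000481), the spermidine synthase Srm (-0.71 ± 0.20, adjusted p = 0.0105) and Nolc1 (-0.63 ± 0.13, adjusted p = 0.00123) fell. The amino acid transporter Slc1a5 rose in DEN (1.25 ± 0.30, adjusted p = 0.00179) and LT tumors (1.03 ± 0.35, adjusted p = 0.0349).

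Within the groups of the MYC model, the target mean and Myc did not run in one order. The mean of the 48 was 8.78, 8.94, 8.86, 8.69 and 8.86 in MYC tumors, against 8.54, 8.50 and 8.57 in MYC NTL and 8.47, 8.41, 8.41 and 8.50 in the shared controls. All 5 tumors lay above both groups. Tumor replicate 4, with the highest Myc (10.52), had the lowest target mean of the tumors (8.69), while replicate 2, second in Myc (9.71), had the highest (8.94). The shared control with a Myc of 9.56 had the highest target mean of the controls (8.50). The NTL sample with a Myc of 9.48 had a target mean of 8.54, within 0.04 of its group mean of 8.54 ± 0.04 (SD, n = 3). The CACGTG E-box was present in promoters of 14 of the 42 targets with a promoter in the table (33.3%), beside 8.09% of all genes.

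**Figure D5:**
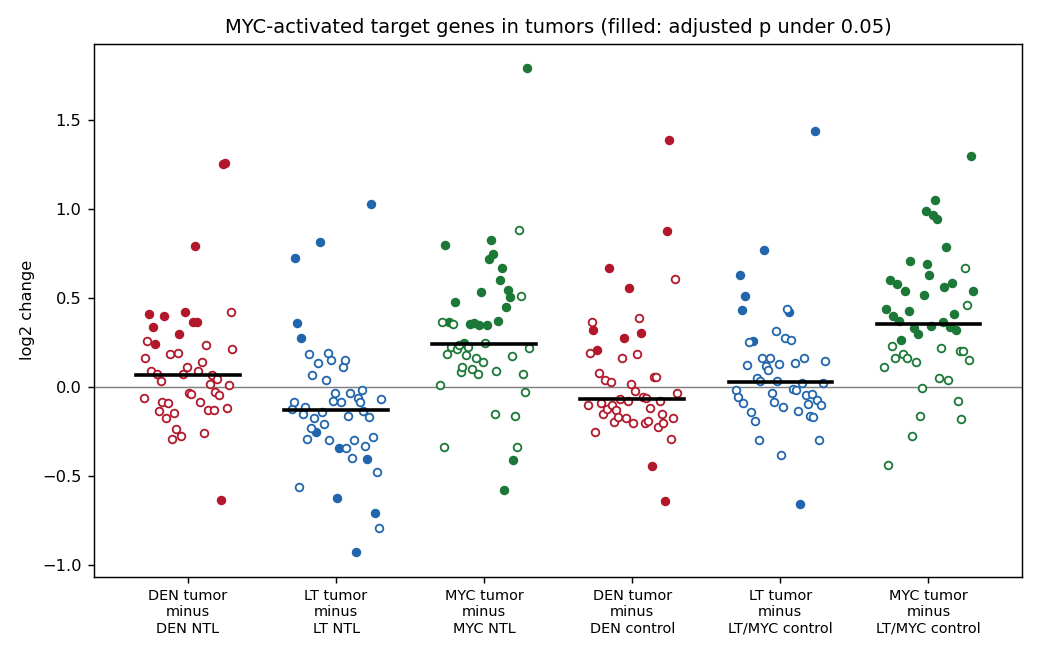
Log2 change of the 48 MYC-activated targets, 1 point per gene, in tumors against NTL (left 3 columns) and against controls (right 3 columns) for the DEN, LT and MYC models. Filled points passed an adjusted p of 0.05, and black bars are medians, which are highest in the MYC tumors (0.24 and 0.35).

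Of 21 measured genes known as repressed by MYC, 5 were higher and 5 lower in MYC tumors against NTL, and 4 higher and 7 lower against controls (4 lower without control replicate 2 or 3). Pdgfrb on this list is also among the stellate cell markers described above. The part of stellate cells in these counts was not tested. The transcription factor Klf9 (-1.03 ± 0.18, adjusted p = 9.21e-05) and Cebpa, a driver of hepatocyte differentiation (-0.80 ± 0.18, adjusted p = 0.00191), fell against NTL. H2-K1, a class I antigen presentation gene, fell by 0.65 on the log2 scale against NTL (adjusted p = 0.000524) and by 0.98 against controls (adjusted p = 5.54e-07). Cdkn1a, the cell cycle inhibitor p21, went the other way and rose 20.6-fold, with 9.45 to 11.08 in MYC tumors against 6.05 to 6.15 in MYC NTL. In the shared controls it was 7.63 to 8.92, above MYC NTL, and against these the change was 2.14 ± 0.44 (adjusted p = 0.000636). Most called members of this list were higher in the other models, 8 higher and 2 lower in DEN tumors and 9 higher and 1 lower in LT tumors (4 to 11 higher with 1 array left out, 4 without LT tumor replicate 1), with Btg2 (2.75 ± 0.22, adjusted p = 1.49e-10) in front in DEN and Thbs1 (3.27 ± 0.55, adjusted p = 0.000139) in LT.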

How the data were processed

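Liver RNA of 35 samples was measured on 1-colour expression arrays, and probe sets were named through GEO's platform annotation. The deposited values are log2 intensities that the authors summarised per probe set with RMA, per the submitters' processing notes. The RMA version is not given in the sources used here, no genome build is named for the files, and precision is limited by how many arrays a group has. Of 35556 probe sets, 21218 carried a single gene symbol, and the brightest per gene gave 18820 genes. Groups come from the sample titles. Nothing in the labels says that samples of a group are separate animals beyond their identifiers, so p-values measure the spread between these samples.

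A linear model with 1 mean for each group was fitted to the 35 arrays with limma 3.58.1 (lmFit, eBayes; R 4.3.3) and no filter, and called genes had a Benjamini-Hochberg adjusted p under 0.05 over all genes. The fit was tested on simulated data. Exact permutation tests were added for Myc. Replicate numbers of the titles were checked for pairing by the correlation of deviations from group means. All 3 pairs exceeded 0.1 only for LT tumors and shared controls (0.137 to 0.233), and the blocked value is given where it changed a call there. Alternatives were array centring, averaged probe sets, a filter on dim genes, only the groups compared, eBayes with trend and robust settings, the replicate block, averaged identifier stems, leaving out each array and, chosen after seeing the data, Xist class as a covariate and the list counts with each array left out. The network genes, the lists and these tests were chosen with earlier results of these data known. From each list, up to 3 called genes with the largest rise and up to 3 with the largest fall per comparison could be named, and likeness was ranked by Pearson's r over all arrays. Promoters come from RefSeq on GRCm38.p6.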

Additional observations from a re-analysis of the deposited data

Results flagged for a closer look

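In 4 of 54 sets of a network gene and a group, 1 array stood far from the others by Dixon's test, which chance alone does for about 1 group in 20. These were Myc in shared control replicate 4 (9.56, the others 7.18 to 7.31), Mycn in shared control replicate 1 (5.96, the others 5.62 to 5.68), Mycl in LT NTL replicate 4 (6.62, the others 6.26 to 6.36) and Max in MYC tumor replicate 5 (8.75, the others 8.28 to 8.42).

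Of 27 tests of whether the tumor change against NTL of a network gene differed between models, 5 passed an adjusted p of 0.05 in limma. The change of Mycl was higher in DEN than in MYC tumors by 0.91 and higher in LT than in MYC tumors by 0.74. The change of Mxd4 was lower in LT than in MYC tumors (-0.40), as was that of Mxi1 (-0.62). The change of Mxi1 was higher in DEN than in LT tumors by 0.50.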

How the results depend on the processing

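No called change of a network gene reversed its direction under the alternatives run. With every result and alternative counted, 106 changes of network genes lost their call, 16 gained one and 1912 kept their side of the threshold. The exact permutation p of Myc in DEN tumors against NTL (0.0238) was 0.107 with shared identifier stems averaged. With 1 array left out it ranged from 0.0159 to 0.0476 in DEN, from 0.229 to 0.952 in LT and from 0.0571 to 0.190 in MYC tumors against NTL. Counts of genes called in the whole table moved by over 1.5 times as follows, the cause not being tested. With only the groups compared in the fit, which leaves fewer arrays to estimate the spread, DEN NTL against controls had 183 (37 in the fit of all arrays), LT tumors against NTL 615 (3838), LT tumors against controls 0 by limma (3107; 3751 had an unadjusted p under 0.05 in the smaller fit), MYC NTL against controls 1537 (721) and the LT minus MYC difference 1231 (2326). With shared stems averaged, DEN NTL against controls had 74, LT tumors against NTL 2311 and LT tumors against controls 1616. With Xist class as a covariate, LT tumors against controls had 1273 and LT NTL against controls 174 (454). With 1 array left out, the counts were 5229 to 6223 (DEN tumors against NTL, 6068 with all arrays), 5206 to 5734 (DEN tumors against controls, 5775), 26 to 45 (DEN NTL against controls), 1566 to 5072 (LT tumors against NTL), 1032 to 4542 (LT tumors against controls), 160 to 586 (LT NTL against controls), 2728 to 3995 (MYC tumors against NTL, 4106), 3055 to 3780 (MYC tumors against controls, 3860), 299 to 660 (MYC NTL against controls), 2100 to 3190 (DEN minus MYC, 2841), 1570 to 3105 (LT minus MYC) and 2178 to 3423 (DEN minus LT, 2618). Replicates of different groups share a number in their titles. The correlation of their deviations exceeded 0.1 in all 3 pairs only for LT tumors against controls (0.137 to 0.233). Single pairs elsewhere reached 0.291, so these values do not settle whether replicates were paired. The replicate block ended the call of Max in LT tumors against controls (limma adjusted p = 0.0711). It also ended those of Mxd3 in DEN tumors against NTL (0.0596) and Mxi1 in DEN tumors against controls (0.0573). In the differences between models it ended those of Mycl (0.0709) and Mxd4 (0.0746) for LT minus MYC, and of Mxi1 for DEN minus LT (0.0544). Tumor and NTL come from different animals, and LT tumors and MYC NTL have 3 arrays each, of which a pair of LT tumors share a stem. Levels of Mxd3 lie near the dim end of the arrays.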
